A study of Mus musculus with 12 samples.

Results

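A set of 9 genes of the output arm of the circadian clock were followed in mouse liver: the PAR bZIP transcription factors Dbp, Tef and Hlf, their antagonist Nfil3, the repressors Ciart, Bhlhe40 and Bhlhe41, and the clock-driven genes Usp2 and Wee1. They were chosen by gene symbol, with earlier results of these data known. Of the 9 genes 9 were measured, each by 1 probe set, among 19505 named genes and 22206 probe sets in all. The study asked how heat production by a mother's brown fat bears on her male offspring. It compared liver RNA of 6 adult sons of UCP1-KO dams, which lack the uncoupling protein of brown fat, with that of 6 adult sons of WT dams, on 1 expression array per son. The sons in both groups were C57BL/6J males, 4 to 5 months old, kept at 23 °C on standard chow, and all were labelled heterozygous (HET). Both kinds of dam had been mated with HET sires. The groups therefore differ in the mother's genotype and also in which parent passed on the mutant allele, and these cannot be told apart. The labels give no litter, array batch or time of day at which tissue was taken, so sons of 1 dam may be among the 6, and p-values measure the spread between these sons. Arrays are named here by the number in the labels: 7 to 12 are sons of UCP1-KO dams and 1 to 6 are sons of WT dams.

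In the mammalian clock, BMAL1 (gene Arntl) and CLOCK bind E-boxes and drive Per, Cry and Nr1d genes, whose products feed back on them. The same E-boxes drive an output layer. DBP, TEF and HLF activate genes through D-boxes, and in liver they control drug-metabolising enzymes, while NFIL3 binds the same D-boxes as a repressor. CIART, BHLHE40 and BHLHE41 repress BMAL1 and CLOCK activity, USP2 is a deubiquitinase that acts on clock proteins, and WEE1 is a kinase that holds back entry into mitosis. Dbp RNA is among the most strongly cycling transcripts of mouse liver.

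All values below are log2 signals, on which 1 unit is a doubling, and differences are sons of UCP1-KO dams minus sons of WT dams. Levels of different genes are not compared, since probe sets differ in response. The negative control probe sets of the arrays had a median of 6.21 ± 0.14 in sons of UCP1-KO dams (SD, n = 6). In sons of WT dams it was 6.39 ± 0.21 (SD, n = 6). A level below that median is called near the floor here, though probe sets reach lower signals. The background control probe sets had a mean of 5.02 in sons of UCP1-KO dams and 5.00 in sons of WT dams. Bhlhe41 was above that mean on 12 arrays, Tef on 11, and Ciart and Usp2 on 9 each. Hepatocyte markers were bright in both groups, and their mean level lay between 18.47 and 18.73 in sons of UCP1-KO dams and between 18.38 and 18.61 in sons of WT dams. Of 12 markers of lymphocytes, pancreatic acinar cells and adipocytes, 0 had a mean above the negative controls. Since bulk tissue was measured, fewer cells of a type and less RNA per cell cannot be told apart.

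The promoters of 7 of the 9 genes were in a RefSeq table (assembly GRCm38.p6), which gives 250 bases before to 50 bases after each gene's start. Each was searched on both strands for the E-box CACGTG and other clock motifs, and the promoters with an E-box are shown, with that of Nfil3 for its nuclear receptor motif, because the E-box is the site through which the core clock drives this output layer. Capitals mark the matches, and coordinates are chr3:95882179-95882478 (minus strand) for Ciart, chr6:145865371-145865670 (minus strand) for Bhlhe41, chr15:81802423-81802722 and chr15:81811164-81811463 (plus strand) for the 2 starts of Tef, and chr13:52980990-52981289 (minus strand) for Nfil3.
Ciart promoter: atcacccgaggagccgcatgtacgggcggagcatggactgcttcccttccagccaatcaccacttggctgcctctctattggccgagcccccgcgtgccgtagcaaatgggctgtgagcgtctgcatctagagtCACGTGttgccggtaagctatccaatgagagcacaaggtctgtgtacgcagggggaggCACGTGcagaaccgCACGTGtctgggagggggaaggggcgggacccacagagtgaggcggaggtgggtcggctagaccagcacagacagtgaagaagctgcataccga
Bhlhe41 promoter: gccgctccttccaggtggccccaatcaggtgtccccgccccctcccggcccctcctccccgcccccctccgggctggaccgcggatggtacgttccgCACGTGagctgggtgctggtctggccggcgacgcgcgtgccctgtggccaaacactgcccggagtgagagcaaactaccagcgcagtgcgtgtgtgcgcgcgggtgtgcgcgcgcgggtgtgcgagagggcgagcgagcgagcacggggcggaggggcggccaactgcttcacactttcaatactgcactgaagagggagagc
Tef promoter A: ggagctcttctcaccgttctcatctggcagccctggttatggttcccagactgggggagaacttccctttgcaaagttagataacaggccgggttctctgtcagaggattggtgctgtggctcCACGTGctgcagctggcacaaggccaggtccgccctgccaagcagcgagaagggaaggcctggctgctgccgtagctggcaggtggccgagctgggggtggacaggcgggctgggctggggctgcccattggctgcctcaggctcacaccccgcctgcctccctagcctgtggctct
Tef promoter B: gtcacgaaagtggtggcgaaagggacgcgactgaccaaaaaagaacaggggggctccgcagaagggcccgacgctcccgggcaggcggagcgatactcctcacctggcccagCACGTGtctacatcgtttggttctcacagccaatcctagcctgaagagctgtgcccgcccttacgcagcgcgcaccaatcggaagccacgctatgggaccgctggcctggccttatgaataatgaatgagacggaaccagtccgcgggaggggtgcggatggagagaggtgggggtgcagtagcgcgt
Nfil3 promoter: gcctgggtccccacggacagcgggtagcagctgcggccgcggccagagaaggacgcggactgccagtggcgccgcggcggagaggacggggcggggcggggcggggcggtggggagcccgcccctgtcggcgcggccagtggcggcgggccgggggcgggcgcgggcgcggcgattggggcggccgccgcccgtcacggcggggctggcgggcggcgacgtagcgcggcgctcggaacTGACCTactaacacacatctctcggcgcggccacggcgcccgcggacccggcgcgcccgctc
The E-box was found in 4 of the 8 member promoters, against 7.15% of 32851 promoters in the table. These promoters belong to 3 of the 7 genes, since Tef has 2 starts. Ciart held 3 E-boxes, with first bases 116, 58 and 44 bases before the start, and only 0.0883% of promoters in the table held that many. The E-box of Bhlhe41 began 153 bases before the start, and those of Tef began 127 and 138 bases before its 2 starts. The capitals in Nfil3 are AGGTCA read on the opposite strand, the motif bound by ROR and REV-ERB nuclear receptors, which 16.3% of promoters hold. A single CRE (TGACGTCA) lay in the promoter of Hlf, and 1.79% of promoters hold it. The D-boxes TTATGTAA and TTACGTAA and the E-prime box CACGTT were in 0 of the 8. Dbp and Usp2 held no match in this window, and a match is a description of letters, not a site shown to be bound.

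Dbp varied most. It ranged from 11.07 to 15.72 with a median of 13.61 in sons of UCP1-KO dams, and from 10.65 to 15.70 with a median of 12.65 in sons of WT dams, a span of 33.5-fold over the 12 livers. The groups covered nearly the same range, with the highest level on array 12 of the UCP1-KO side and the next on array 5 of the WT side. Its mean was 13.50 ± 1.67 in sons of UCP1-KO dams and 12.89 ± 1.96 in sons of WT dams (SD, n = 6 each), a difference of 0.60 with a 95% interval of -1.07 to 2.27 (limma adjusted p = 0.793). Tef, a close relative of Dbp, ranged from 5.00 to 6.33 (median 5.60) in sons of UCP1-KO dams and from 5.15 to 6.48 (median 5.48) in sons of WT dams, near the floor. It was above the negative control median on 2 arrays, and its difference was 0.03 (interval -0.44 to 0.51). Hlf, the remaining PAR bZIP gene, ranged from 9.06 to 10.45 (median 10.24) in sons of UCP1-KO dams, against 9.68 to 10.39 (median 10.07) in sons of WT dams, and its difference was -0.04 (interval -0.47 to 0.40). The low value of 9.06 was that of array 11 alone. No PAR bZIP gene separated the groups.

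The antagonist Nfil3 ranged from 7.68 to 8.99 (median 8.57) in sons of UCP1-KO dams and from 7.31 to 9.07 (median 8.32) in sons of WT dams, and its difference was 0.16 (interval -0.51 to 0.83). Of the repressors, Ciart ranged from 4.71 to 7.18 (median 5.22) in sons of UCP1-KO dams and from 4.71 to 6.30 (median 5.46) in sons of WT dams. Ciart exceeded the negative control median on 2 of the 12 arrays, so most of its levels are near the floor. Bhlhe40 was well expressed, at 11.25 to 14.88 (median 12.52) in sons of UCP1-KO dams, against 12.43 to 13.85 (median 13.19) in sons of WT dams, and its difference was -0.35 (interval -1.35 to 0.64). Bhlhe41 ranged from 5.51 to 8.87 (median 5.92) in sons of UCP1-KO dams and from 5.33 to 8.04 (median 6.17) in sons of WT dams, with 5 of the 12 arrays above the negative control median, so most of its levels are near the floor too. In each repressor the ranges overlapped. Usp2 ranged from 4.45 to 8.16 (median 5.47) in sons of UCP1-KO dams, against 4.98 to 6.68 (median 5.21) in sons of WT dams, with 3 arrays above the negative control median. Wee1, the mitotic kinase, ranged from 7.54 to 8.66 (median 7.67) in sons of UCP1-KO dams and from 7.25 to 8.31 (median 7.56) in sons of WT dams. The differences were 0.26 (interval -0.50 to 1.03) for Ciart, 0.25 (-0.92 to 1.41) for Bhlhe41, 0.48 (-0.59 to 1.55) for Usp2 and 0.26 (-0.23 to 0.75) for Wee1.

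**Figure D1:**
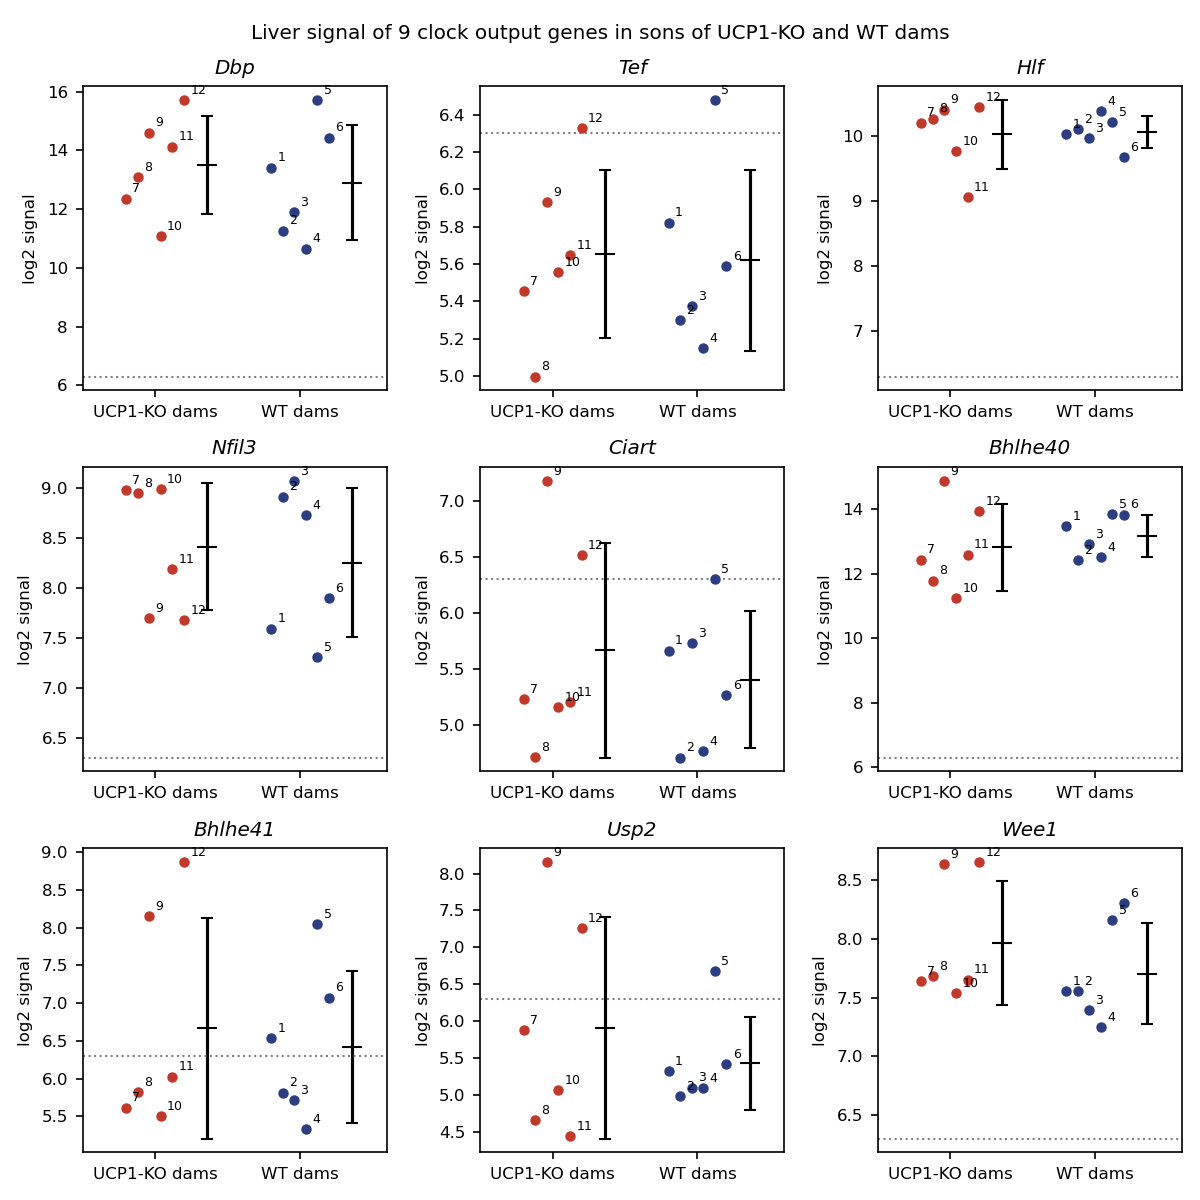
Log2 signal of the 9 genes on each array, with sons of UCP1-KO dams (red) left of sons of WT dams (blue), the array number beside each point, the mean and SD as a bar, and the mean of the negative control medians as a dotted line. The vertical axes differ between panels. The groups overlap in each panel, and Tef, Ciart, Bhlhe41 and Usp2 lie mostly at or under the dotted line.

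By dam genotype, 0 of the 9 members passed an adjusted p of 0.05 in limma and 0 passed an unadjusted p of 0.05, against 0.036% and 13.1% of the 22206 probe sets. Of the members, 7 had a higher mean in sons of UCP1-KO dams and 2 a lower one, with a median difference of 0.25 beside 0.03 over all probe sets. The groups of 0 members were separate, against 1.05% of probe sets. The intervals do not show that the groups are alike: the interval of Dbp runs from -1.07 to 2.27.

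The spread between sons of the same group was large for most members. The within-group SD of Dbp, 1.82, exceeded that of 99.95% of probe sets and ranked 11. Bhlhe41 (1.26), Usp2 (1.15), Bhlhe40 (1.06), Ciart (0.80) and Nfil3 (0.70) also lay above 99.07% to 99.85% of probe sets, so that 6 of 9 members were beyond the 95% mark. The median SD of all probe sets was 0.28. Wee1 (0.48), Tef (0.47) and Hlf (0.41) were less variable than these, but still above 94.93%, 93.96% and 88.95% of probe sets. There were 6 members with the larger SD in sons of UCP1-KO dams and 3 in sons of WT dams.

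The spread was shared between genes. The relation of each other member to Dbp was fitted in limma as a slope (log2 of the member per log2 of Dbp) with the dam genotype as a term, and 2 of the 8 passed an adjusted p of 0.05, against 0.045% of 22205 probe sets. Bhlhe41 rose with Dbp, at a slope of 0.61 ± 0.08 (SE, adjusted p = 0.00922), against 0.036% of probe sets that rose, and Nfil3 fell, at -0.34 ± 0.05 (adjusted p = 0.0222), against 0.00901% that fell. At an unadjusted p of 0.05, 7 of the 8 passed, against 5.27% of probe sets, 6 of them with a positive slope. The slopes that missed the adjusted p were 0.46 ± 0.09 for Bhlhe40 (adjusted p = 0.120), 0.22 ± 0.05 for Wee1 (0.194), 0.21 ± 0.05 for Tef (0.318), 0.30 ± 0.08 for Ciart (0.591) and 0.37 ± 0.13 for Usp2 (0.762). Hlf had a slope of 0.01 ± 0.06 (95% interval -0.13 to 0.14). The median slope of the 8 was 0.26. The call on Bhlhe41 was lost without array 12 of the UCP1-KO side (slope 0.53, adjusted p = 0.0611), array 5 of the WT side (0.63, 0.0656) or the 2 arrays farthest in Dbp (0.69, 0.288). That on Nfil3 was lost without array 10 (-0.37, 0.0545) or 12 (-0.35, 0.106) of the UCP1-KO side, array 2 (-0.34, 0.0719) or 5 (-0.34, 0.142) of the WT side, or the 2 farthest (-0.39, 0.351), so the slopes stayed of like size where the calls were lost. Without array 9 of the UCP1-KO side Bhlhe40 passed as well (slope 0.40, adjusted p = 0.0113).

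Deviations from the group means were compared across the 12 livers, in 8 relations. Those of Dbp had their largest gap between -0.41 and 0.52, 17.6% of their range, with 6 livers on each side, 3 of each group. The deviation of Bhlhe41 followed that of Dbp with Pearson's r = 0.89 (permutation p = 2e-05) and Spearman's rho = 0.90 (p = 0.00021). Leaving out the 2 livers farthest from the median of Dbp, array 10 of the UCP1-KO side and array 5 of the WT side, gave r = 0.84 (p = 0.00018). Within groups r was 0.86 in sons of UCP1-KO dams (exact p = 0.0153) and 0.98 in sons of WT dams (exact p = 0.00278), and in the 6 sons of UCP1-KO dams the order of Bhlhe41 was that of Dbp. Bhlhe41 was above the negative control median on 5 of the 12 arrays, so this order rests partly on levels near the floor. Bhlhe40, the paralog of Bhlhe41, had a positive relation as well. Its r was 0.79 (p = 0.00144) and rho 0.87 (p = 0.00059), with r = 0.75 (p = 0.0135) without the 2 livers. Its r was 0.82 (exact p = 0.05) in sons of UCP1-KO dams and 0.96 (exact p = 0.00694) in sons of WT dams. Nfil3 ran opposite to Dbp, with r = -0.90 (p = 0.00115) and rho = -0.83 (p = 0.00307), and r = -0.87 (p = 0.00685) without the 2 livers. Within groups its r was -0.91 in sons of UCP1-KO dams (exact p = 0.0181), where its order was the reverse of that of Dbp, and -0.89 in sons of WT dams (exact p = 0.0403).

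The kinase gene Wee1 gave r = 0.84 (permutation p = 0.00078) and rho = 0.80 (p = 0.0036), and r = 0.82 (p = 0.0045) without the 2 livers. Its r was 0.82 in sons of UCP1-KO dams (exact p = 0.0431) and 0.88 in sons of WT dams (exact p = 0.0222). Tef, Ciart and Usp2, like Bhlhe41, were near the floor on most arrays, so their relations, computed over all 12 livers, rest partly on such levels. For Tef, r was 0.80 (permutation p = 0.00314) and rho 0.77 (p = 0.00774), with r = 0.79 (p = 0.00624) without the 2 livers, 0.67 in sons of UCP1-KO dams (exact p = 0.139) and 0.91 in sons of WT dams (exact p = 0.00833). For Ciart, r was 0.69 (permutation p = 0.0165) and rho 0.70 (p = 0.0197), with r = 0.60 (p = 0.0658) without the 2 livers, 0.67 in sons of UCP1-KO dams (exact p = 0.163) and 0.78 in sons of WT dams (exact p = 0.0806). The limma slope of Ciart was 0.33 without the 2 livers, beside 0.30 with them. For Usp2, r was 0.59 (permutation p = 0.0378) and rho 0.62 (p = 0.0372), with r = 0.43 (p = 0.21) without the 2 livers, 0.57 in sons of UCP1-KO dams (exact p = 0.257) and 0.85 in sons of WT dams (exact p = 0.00417). Hlf, the remaining PAR bZIP gene, is well above the floor. Its r was 0.02 (permutation p = 0.943) and rho 0.13 (p = 0.703), with r = -0.21 (p = 0.583) without the 2 livers, 0.24 in sons of UCP1-KO dams (exact p = 0.647) and -0.37 in sons of WT dams (exact p = 0.481). Within groups its rho was 0.66 in sons of UCP1-KO dams (exact p = 0.175). In sons of WT dams rho was -0.37 (exact p = 0.497). The sons of UCP1-KO dams other than array 11, which had the lowest Hlf, were in the order of Dbp.

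**Figure D2:**
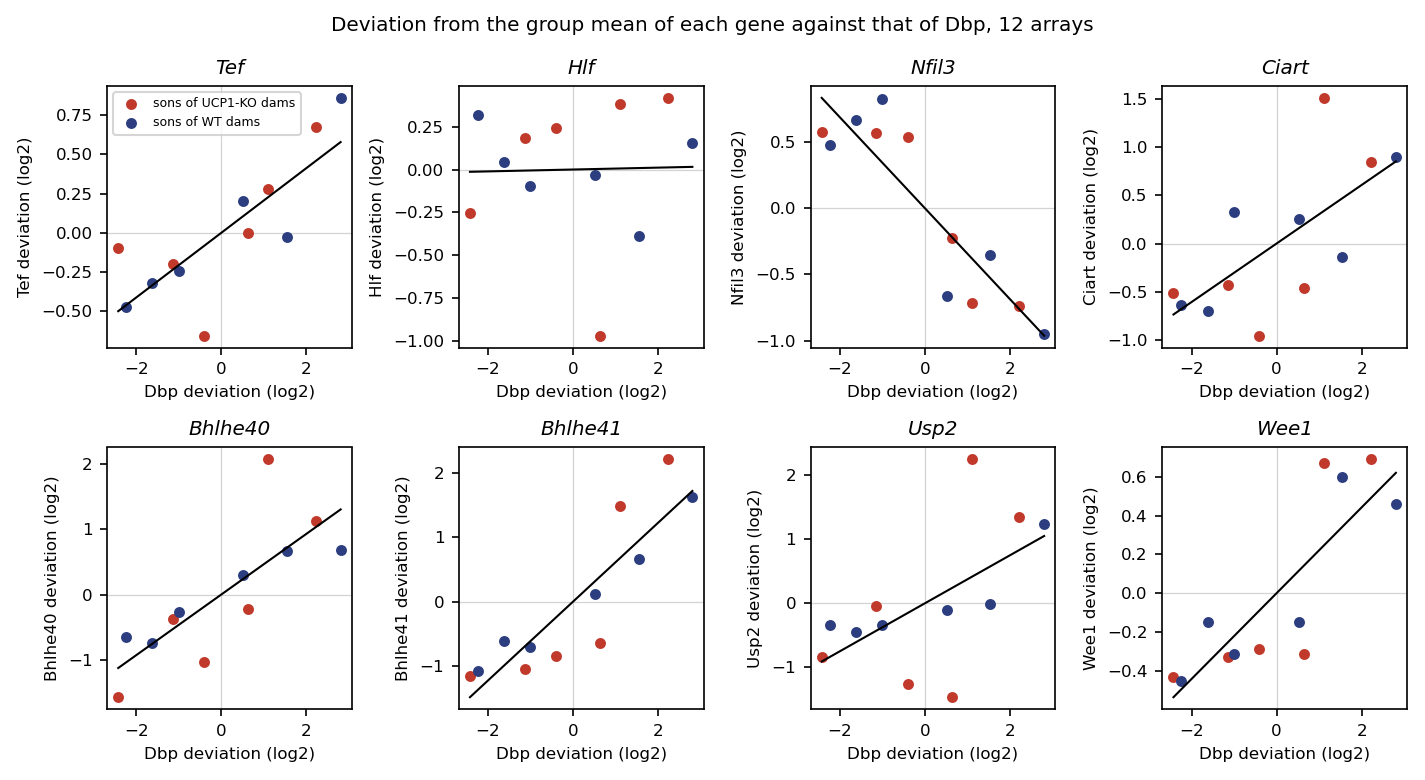
Deviation of each of the other 8 genes from its group mean (vertical axis, log2) against that of Dbp (horizontal axis, log2) in sons of UCP1-KO dams (red) and of WT dams (blue), with the limma slope as a line. Bhlhe41 follows the line closely at a slope of 0.61, Nfil3 falls at -0.34, and Hlf shows no slope.

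Some members were unevenly spread. The deviations of Nfil3 left a gap between -0.23 and 0.48, with 6 livers on each side, 3 of each group. The 6 livers below this gap were those above the gap of Dbp. They were arrays 9, 11 and 12 of the UCP1-KO side and 1, 5 and 6 of the WT side. Wee1 was higher on 4 arrays, 9 and 12 of the UCP1-KO side and 5 and 6 of the WT side, than on the other 8, with a gap between -0.15 and 0.46. Usp2 was highest on 3 arrays, 9 and 12 of the UCP1-KO side and 5 of the WT side, with a gap between -0.01 and 1.24. Whether these relations are graded within such sets was not tested.

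The slopes were then fitted separately for each dam genotype, an alternative added after the data were seen. For 0 of 22205 probe sets did the slope differ at an adjusted p of 0.05, and 763 differed at an unadjusted p of 0.05. The member nearest to a difference was Bhlhe40, with a slope of 0.67 in sons of UCP1-KO dams and 0.31 in sons of WT dams, a difference of 0.35 (interval -0.01 to 0.72). The deviation of Dbp was also set against the median of the negative controls, giving r = -0.27 (permutation p = 0.427) and rho = -0.35 (p = 0.299), with r = -0.28 without the 2 farthest livers. With that median as a covariate the slope of Bhlhe41 was 0.60 (limma adjusted p = 0.0241) and that of Nfil3 was -0.32 (adjusted p = 0.0512).

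The 3 highest livers were the same for Dbp, Tef, Ciart, Bhlhe40, Bhlhe41 and Usp2, and their order differed. Ciart, Bhlhe40 and Usp2 were highest on array 9 of the UCP1-KO side (7.18, 14.88 and 8.16), where Dbp was 14.60, and then on array 12 of that side (6.51, 13.94 and 7.26) and array 5 of the WT side (6.30, 13.85 and 6.68). Array 11 of the UCP1-KO side had a high Dbp of 14.13 but the lowest Usp2 of all, 4.45. With Ciart in place of Dbp as the gene the others were set against, 2 members passed the adjusted p in limma, Usp2 at a slope of 1.29 ± 0.17 (adjusted p = 0.0113) and Bhlhe40 at 1.17 ± 0.17 (adjusted p = 0.0203), against 0.0135% of probe sets. Bhlhe41 had a slope on Ciart of 1.32 ± 0.21 (adjusted p = 0.0558) and Dbp of 1.56 ± 0.41 (0.365). Ciart was above the negative control median on 2 arrays and Usp2 on 3, so their slope, fitted over all arrays, rests largely on levels near the floor. The only other probe set called was that of Slc20a1, a phosphate transporter (0.67 ± 0.10, adjusted p = 0.0347), named here after its value was seen.

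**Figure D3:**
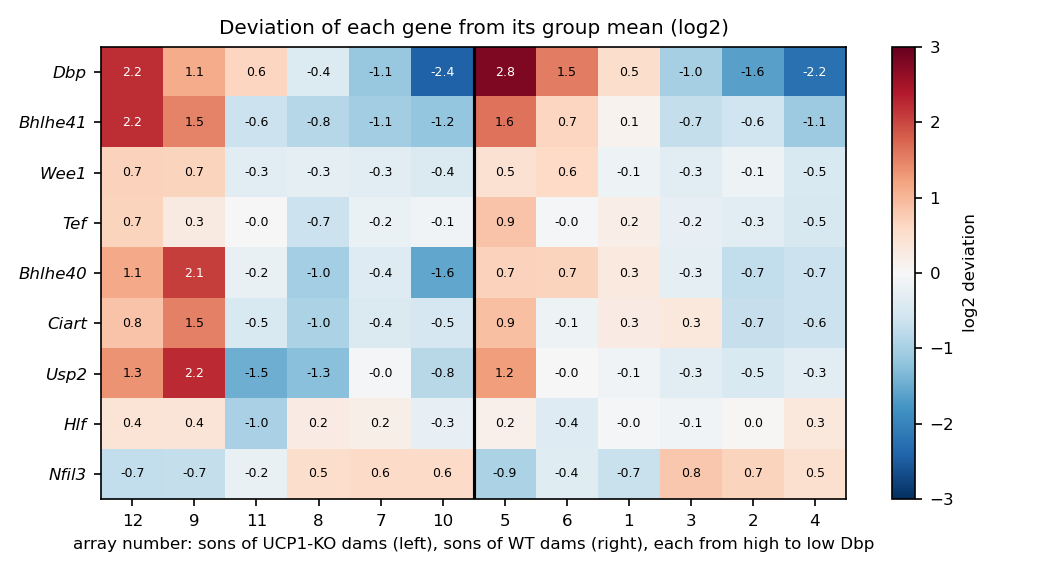
Deviation of each gene from its group mean (colour, log2) on each array, with sons of UCP1-KO dams left and sons of WT dams right and arrays ordered within each group from high to low Dbp. The colour of Bhlhe41 runs with that of Dbp and that of Nfil3 runs against it, while Hlf shows no such order across both groups.

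The core loop of the clock, which drives the members, was read in the same fit. Of 12 listed genes 11 were measured, and 2 rose with Dbp past the adjusted p, against 0.036% of probe sets that rose. Per3, a period gene, rose at 0.58 ± 0.07 (adjusted p = 0.00101) and Nr1d2, which encodes REV-ERB beta, at 0.26 ± 0.04 (adjusted p = 0.0231). Arntl, the partner of CLOCK, had a slope of -0.40 ± 0.07 (adjusted p = 0.0767) and Nr1d1 of 0.22 (0.628). In all, 8 of the 11 had an unadjusted p under 0.05, against 5.27% of probe sets. The slopes ran both ways, 6 positive and 5 negative, with a median of 0.09. By dam genotype 0 of the 11 were called, against 0.036% of probe sets, with 5 differences above 0 and 6 below. The largest was that of Npas2, -1.60 (limma adjusted p = 0.117). Its mean was 6.19 in sons of UCP1-KO dams and 7.79 in sons of WT dams.

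Genes driven by the PAR bZIP factors were read next. Of 11 measured, 0 passed the adjusted p and 2 the unadjusted one, against 0.045% and 5.27% of probe sets, 9 having a positive slope and 2 a negative one, with a median of 0.09. The 2 were Cyp2a5 (0.29 ± 0.06, adjusted p = 0.194) and Cyp2a4 (0.31 ± 0.08, adjusted p = 0.327), near-identical cytochrome P450 genes that the array may not keep apart. Alas1, the first enzyme of heme synthesis, had a slope of 0.36 (adjusted p = 0.981), and Cyp2c50 of 0.09 (adjusted p = 1.00). Among other clock-controlled liver genes 0 of 15 passed the adjusted p and 12 had an unadjusted p under 0.05, against the same 0.045% and 5.27%, with 5 positive and 10 negative slopes. Lonrf3 had a slope of -0.28 (adjusted p = 0.146), Rgs16, a regulator of G-protein signalling, 0.60 (0.510), Insig2, a regulator of sterol synthesis, -0.16 (0.552), and Clpx, a mitochondrial chaperone, -0.14 (0.576).

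The mitotic partners of WEE1 gave no readout here. The 9 genes measured all had a mean below the negative controls, and 0 had an unadjusted p under 0.05, against 5.27% of probe sets. Their median slope on Dbp was -0.0038. Mki67, a proliferation marker, had a slope of 0.06, Pkmyt1 of 0.05, Cdc25c of 0.02 and Top2a of -0.02. Among 37 markers of hepatocytes and 7 other cell types, 0 were called with Dbp or by dam genotype, against 0.045% and 0.036% of probe sets. For the Dbp slope 1, the cholangiocyte marker Sox9, had an unadjusted p under 0.05 (slope -0.23), against 5.27% of probe sets. The 37 include the 12 markers of lymphocytes, acinar cells and adipocytes, of which 0 had a mean above the negative controls.

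**Figure D4:**
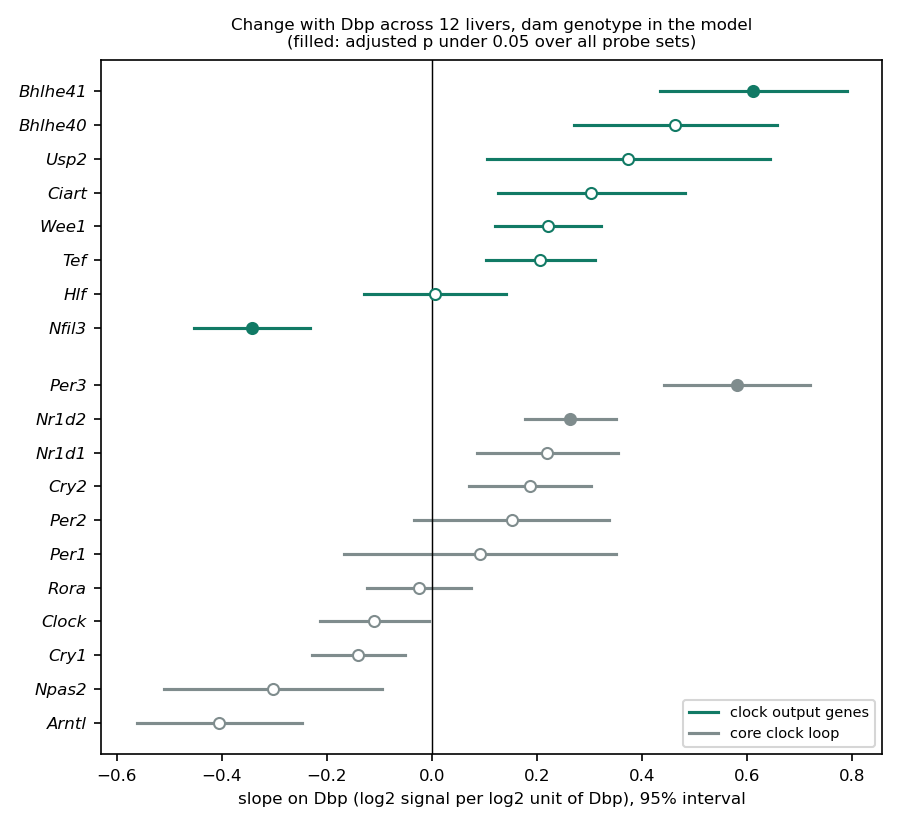
Slope on Dbp (horizontal axis, log2 per log2) with its 95% interval for the other 8 members above the core clock genes. Filled points passed an adjusted p of 0.05: Bhlhe41 and Nfil3 among the members, Per3 and Nr1d2 among the core genes.

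Over all probe sets 8 rose and 2 fell with Dbp past the adjusted p in limma, 4 of them members or core clock genes. The genes most like Dbp over the 12 livers, by Pearson's r of the deviations among 9852 probe sets above the negative controls and with the 9 members left out, were Nr1d2 (0.93), Irf2bpl (0.93), Per3 (0.93), the nuclear receptor gene Pparg (0.91) and the RNA-binding protein gene Rbm47 (0.91). The most opposed, members again left out, were the choline kinase gene Chka (-0.95), Chst12 (-0.85), Clpx (-0.85), Arntl (-0.83) and Lonrf3 (-0.82). Both sets are the extremes picked from 9852 probe sets. In the slope fit Irf2bpl (limma adjusted p = 0.103), Rbm47 (0.103), Chst12 (0.831), Clpx (0.576), Arntl (0.0767) and Lonrf3 (0.146) were not called. Chka fell with Dbp at a slope of -0.47 ± 0.05 (limma adjusted p = 0.00101) and Pparg rose at 0.34 ± 0.05 (adjusted p = 0.0141).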

How the data were processed

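Total RNA of 12 livers was hybridised to 1 array each. The authors made the deposited log2 signals with the Transcriptome Analysis Console and robust multi-array averaging (RMA), per the submitters' processing notes; versions are not given in the sources used here. RMA makes the arrays alike in their distribution, so a change shared by most genes would be reduced. From these, 6640 control rows were left out and 22206 probe sets tested with no filter on dim signals. limma 3.58.1 in R 4.3.3 fitted the dam genotype, and separately the dam genotype with the Dbp value of each array, two-sided. Benjamini-Hochberg adjustment was made over all probe sets (22205 without Dbp). These limma fits were tested on simulated data. Correlations used 100000 permutations within groups, or all orders of a group. The smallest exact p with 6 arrays is 0.00139. Members and gene lists were chosen with earlier results of these data known, so their counts beside the shares of all probe sets are descriptions. The gaps in Dbp, Nfil3, Wee1 and Usp2 were seen in the data. Per list up to 4 genes of smallest p are named, and 5 of highest and lowest r with Dbp. Quantile normalization, array centring, filters, covariates and left-out arrays were tried. With 6 arrays a group, the number of arrays sets the precision. Promoters were searched with Python 3.11.15.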

Additional observations from a re-analysis of the deposited data

Results flagged for a closer look

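Usp2 on array 5 of the sons of WT dams was far from the other sons of WT dams, at 6.68 against 4.98 to 5.42. The gap to the nearest was 0.74 of the range of the group, above the critical value of 0.625 for 6 samples. Of the 18 groups of values looked at this way it was the only one, and chance flags about 1 in 20. The same liver had the highest Dbp, Ciart, Bhlhe40, Bhlhe41 and Tef among sons of WT dams.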

How the results depend on the processing

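The number of probe sets called by dam genotype in limma, 8, was 32 without the dimmer 50% of probe sets, 2 with the negative control median as a covariate, 22 with a variance trend and robust estimation, 0 without arrays 3 to 6 of the sons of WT dams, whose negative controls were brighter, and 1 to 112 leaving out 1 array at a time; 0 members were called under any of these. The number called with Dbp, 10, was 5 with the covariate, 1 without arrays 3 to 6 of the WT side, 5 with no dam genotype term, 3 with Ciart in place of Dbp, 2 in sons of UCP1-KO dams alone, 1 in sons of WT dams alone, 0 without the 2 arrays farthest in Dbp and 2 to 18 leaving out 1 array. The members called, 2, were 1, 0, 1, 2, 0, 1 and 0 under the same settings in that order, and 0 to 3 leaving out 1 array. With Ciart the 2 were Usp2 and Bhlhe40, and Bhlhe41 and Nfil3 were not called (limma adjusted p = 0.0558 and 0.345). Fewer arrays were fitted in several of these settings, and otherwise the cause was not tested. Bhlhe41 kept its call in 18 of 24 alternatives and Nfil3 in 13 of 24, all with the same direction. Values that changed sign were within their error: the Tef difference was -0.0228 with quantile normalization and -0.0555 with the covariate (-0.10 to 0.21 leaving out 1 array), the Bhlhe41 difference was -0.10 with the covariate (-0.19 to 0.57), and leaving out 1 array gave -0.12 to 0.16 for Hlf, -0.0296 to 0.32 for Nfil3 and -0.0413 to 0.45 for Ciart. The slope of Hlf was -0.0027 with quantile normalization, -0.0454 in sons of WT dams alone and -0.0653 without the 2 farthest arrays (-0.0344 to 0.0385 leaving out 1 array), and its r was -0.21 without those arrays and -0.37 in sons of WT dams (-0.15 to 0.21). The filter on dim probe sets left out Tef, Ciart and Usp2, which gave no value there. No paired analysis was possible because the groups share no replicate numbers.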

Other observations

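Genes that follow feeding and glucocorticoids were read in the Dbp fit, since they move with the time of day as well. Of 15 measured, 0 passed an adjusted p of 0.05 in limma and 5 had an unadjusted p under 0.05, against 0.045% and 5.27% of all probe sets. There were 3 positive and 12 negative slopes, with a median of -0.15. Pdk4, which holds back glucose oxidation, had a slope of -0.19 (adjusted p = 0.628). Sgk1, a glucocorticoid-induced kinase, had -0.27 (adjusted p = 0.768), Pck1, an enzyme of gluconeogenesis, -0.15 (adjusted p = 0.879), and Tsc22d3, another glucocorticoid target, -0.29 (adjusted p = 0.907). By dam genotype 0 of the 15 were called in limma, against 0.036% of probe sets.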
